A study of Homo sapiens with 9 samples.

Results

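Expression of 10 TNF receptor superfamily genes was followed across 9 RNA-seq libraries of RIVA cells, an established lymphoma line of the ABC-DLBCL type, the activated-B-cell form of diffuse large-cell lymphoma. The genes were CD40, FAS, CD27, TNFRSF4, TNFRSF8, TNFRSF9, TNFRSF1B, TNFRSF13B, TNFRSF13C and TNFRSF17, picked by symbol from the 60656 genes of the deposited count table, and all 10 were present in it. They and the gene lists below were chosen with earlier results of these data known. Their called counts, set beside the share of all genes, are therefore descriptive. The cells carried a doxycycline-inducible lentiviral construct, which was empty (vector, labelled BCL10 wild type), or encoded the C-terminal truncation S136X or the CARD-domain missense mutant R58Q of BCL10. Each group had 3 libraries made 24 h after induction, at 200 ng/mL doxycycline by the protocol, while the sample characteristics list the unit as ng/µL. All groups kept their endogenous BCL10 and all received doxycycline, so the vector cells carry neither added wild-type nor mutant BCL10. The names of the deposited columns put the vector and S136X libraries under 1 date and the R58Q libraries under a later one, so that in any comparison with R58Q, date and construct cannot be told apart.

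Receptors of this superfamily bind trimeric ligands of the TNF superfamily and signal through TRAF adaptors to NF-kB and MAP kinases, or through a death domain to caspases. On B cells, CD40 receives T-cell help, FAS is a death receptor, CD27 marks antigen-experienced cells and binds CD70, and the receptors for BAFF and APRIL (TNFRSF13B, TNFRSF13C and TNFRSF17) support survival and differentiation into plasma cells. BCL10 is a scaffold that binds MALT1 downstream of the B-cell receptor, and its filaments activate canonical NF-kB.

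The libraries held 28047713 to 33122267 counts, with a median of 32185418. For BCL10, endogenous and construct reads together came to 885, 1268 and 936 counts in vector (replicates 1 to 3 in order, here and below), 14293, 13210 and 9838 with S136X and 10596, 10131 and 10117 with R58Q. The labelled cell type was checked with its markers. B-cell markers were high, among them CD79B at 2830 to 4876 counts and PAX5 at 30830 to 38397 counts. Of 8 T- and NK-cell markers, 6 (CD3D, CD3E, CD3G, CD2, NKG7 and GNLY) had at most 10 counts in every library. The remaining markers, CD8A and TRAC, were detected in every library, at 81 to 215 and 33 to 367 counts. In CPM (library-size scaled counts), all 8 summed to 5.52 to 10.1 in vector, 5.60 to 13.0 for S136X and 5.66 to 15.0 for R58Q. The 7 myeloid markers summed to at most 0.682 CPM in any library. In these bulk libraries, fewer cells carrying a transcript and less of it per cell cannot be told apart.

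The 10 receptors spanned a wide range of expression in vector cells. Levels between genes are given as CPM per kb of exon, using the merged exons of GENCODE release 29. These join all annotated transcripts, so the order and the shares below depend on lengths that may differ from those expressed. Before this division, vector means were 166 ± 20.5 CPM for TNFRSF13C, 146 ± 8.46 for CD40 and 78.4 ± 11.2 for CD27 (SD, n = 3). CD40 (57.9 ± 3.35 CPM per kb, SD, n = 3) and CD27 (55.6 ± 7.94) were the highest and their libraries overlapped. They were followed by TNFRSF13C (42.0 ± 5.21), and then by TNFRSF17 (16.0 ± 1.86) and TNFRSF13B (15.8 ± 0.146), which also overlapped each other. The remaining members lay far lower, in the order TNFRSF4 (0.936 ± 0.212), TNFRSF1B (0.436 ± 0.0414), FAS (0.361 ± 0.0350), TNFRSF8 (0.114 ± 0.0148) and TNFRSF9 (0.00780 ± 0.00976), with no overlap between neighbours in that order. Of the summed level per kb of the 10 genes, CD40 made up 30.6% ± 1.96 in vector cells, 56.1% ± 3.28 with S136X and 68.3% ± 3.27 with R58Q (SD, n = 3). CD27 made up 29.4% ± 3.78, 14.4% ± 1.95 and 11.9% ± 1.53 in the same groups. In S136X, CD27 (28.9 ± 4.84 CPM per kb) overlapped TNFRSF13C (34.5 ± 6.05), and in R58Q it again overlapped TNFRSF13C (34.4 ± 2.95 against 30.2 ± 4.66). FAS lay below TNFRSF1B in vector, overlapped it in S136X, and in R58Q was above it in all 3 libraries (1.17 ± 0.257 against 0.731 ± 0.247).

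**Figure D1:**
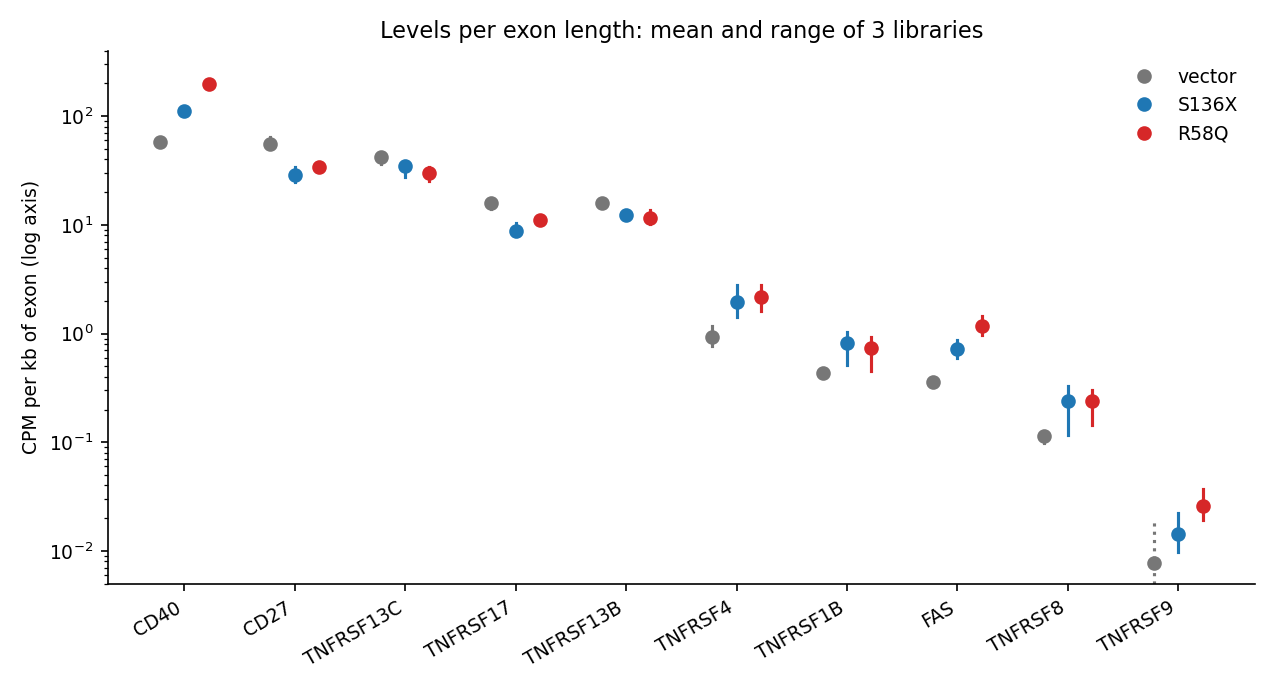
CPM per kb of exon (log axis) of the 10 receptors, ordered by their vector mean, with the mean (point) and the range (line) of 3 libraries in each group; a dotted line reaches 0. CD40 moves away from CD27 and TNFRSF13C in both mutants, to 112 CPM per kb in S136X and 198 in R58Q.

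Receptor transcripts moved in 2 directions in the mutant cells. Genes were called at a Benjamini-Hochberg adjusted p under 0.05 in edgeR's quasi-likelihood test over all tested genes and a change of at least 1.5-fold. Of the 10 members, 9 had enough counts to be tested, and TNFRSF9 had not. In S136X against vector, 4 of the 9 were called, with CD40 and FAS higher and CD27 and TNFRSF17 lower, while 3.87% of all 15530 tested genes were called, 2.05% higher and 1.82% lower. In R58Q against vector, 4 of the 9 were called, with CD40, FAS and TNFRSF4 higher and CD27 lower, beside 7.63% of 15435 tested genes, 4.09% higher and 3.54% lower. The median log2 fold change of the 9 tested members was 0.92 in S136X and 0.74 in R58Q, against -0.020 and -0.028 over all genes tested. In both it is the estimate of TNFRSF1B, which was not called, and it does not describe a set that moved in 2 directions. Both comparisons share the vector libraries. CD40, FAS, TNFRSF1B, TNFRSF4 and TNFRSF8 had estimates above 0 and the other 4 below 0, under each of the scalings tried. Over all genes, scaling turned the split, to 257 higher and 368 lower with total counts for S136X (319 and 282 by TMM) and to 542 and 772 with upper-quartile scaling for R58Q (632 and 546 by TMM). With the replicate number as a block, the S136X count rose to 7 by the addition of TNFRSF4, TNFRSF8 and TNFRSF1B, while the share called of all genes rose to 6.53%. At a 2-fold minimum, edgeR called 0 members in S136X, beside 1.56% of all genes, and 3 in R58Q (CD40, FAS and TNFRSF4), beside 3.41%. With no minimum fold 5 were called in S136X, beside 10.1% of all genes, and 7 in R58Q, beside 21.0%.

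**Figure D2:**
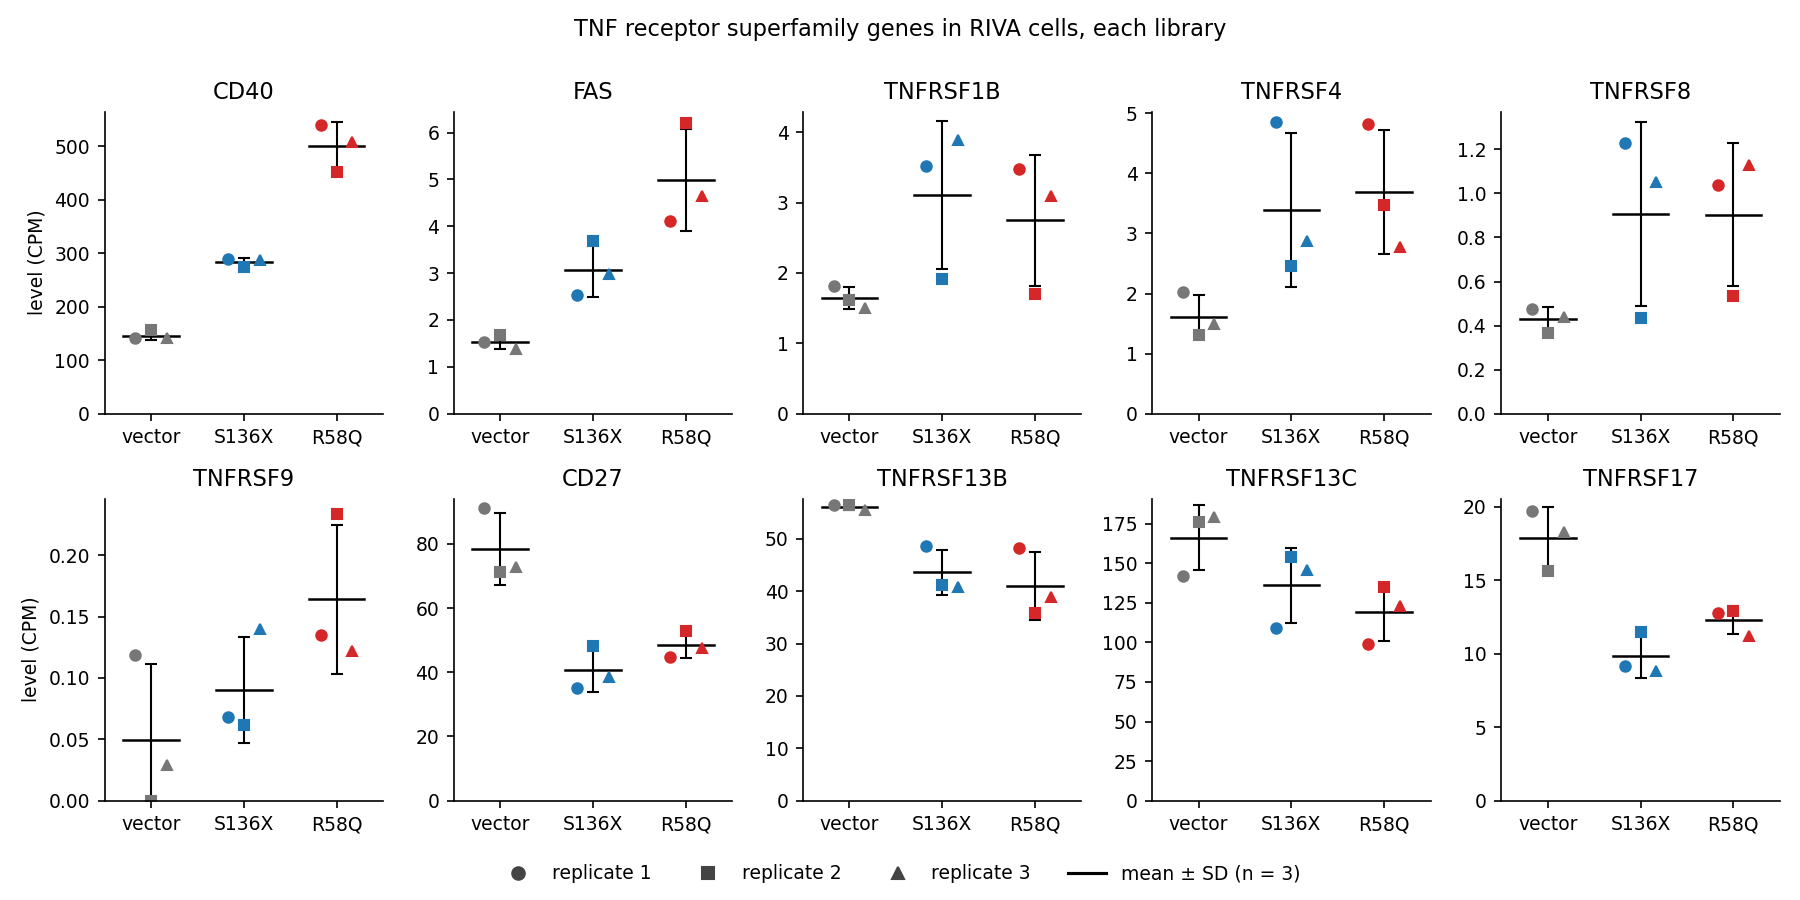
Level in CPM of each receptor in every library, by group, with replicates 1 to 3 as circle, square and triangle and the mean ± SD (n = 3) in black; each panel has its own axis starting at 0. CD40 and FAS are ordered vector, S136X, R58Q without overlap, and CD27 and TNFRSF17 are below vector in all 6 mutant libraries.

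CD40 (ENSG00000101017.14, chr20:46118278-46129863 on GRCh38), the receptor for CD40 ligand on T cells, showed the clearest change. Vector libraries had 4739, 5107 and 4836 CD40 counts, S136X libraries 8462, 8867 and 8189, and R58Q libraries 16034, 13541 and 16616. No library of one group overlapped another group. Mean CD40 was 146 ± 8.46 CPM in vector cells, 284 ± 7.74 with S136X and 500 ± 44.5 with R58Q (SD, n = 3). CD40 rose 1.94-fold in S136X (log2 fold change 0.96, standard error 0.0635, adjusted p = 0.000127 by edgeR) and 3.41-fold in R58Q (1.77, standard error 0.0829, adjusted p = 1.96e-05). Libraries with the same replicate number gave log2 ratios to vector of 1.04, 0.82 and 1.01 for S136X and 1.94, 1.54 and 1.84 for R58Q. Both calls held in all 15 alternative fits, in which the log2 fold change ranged from 0.90 to 1.01 for S136X and from 1.71 to 1.84 for R58Q. Its ligand gene CD40LG had 0 counts in all 9 libraries.

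FAS (ENSG00000026103.22, chr10:88990531-89017059), the death-domain receptor that triggers apoptosis when bound by FAS ligand, changed in the same direction from a far lower level. Vector libraries had 52, 55 and 47 FAS counts, those of S136X 74, 119 and 85, and those of R58Q 122, 186 and 152. The 3 groups did not overlap on the CPM scale, and in each of them replicate 2 was the highest library. Mean levels were 1.54 ± 0.149, 3.07 ± 0.585 and 4.99 ± 1.09 CPM (SD, n = 3). The increase was 2.00-fold in S136X (standard error 0.207 on the log2 scale, adjusted p = 0.0198) and 3.24-fold in R58Q (log2 fold change 1.70, standard error 0.203, adjusted p = 0.00138, edgeR). The S136X call was lost without vector replicate 2 (adjusted p = 0.0700), vector replicate 3 (0.0672), S136X replicate 2 (0.0578) or S136X replicate 3 (0.0561), with the log2 fold change between 0.86 and 1.12 across all replicates left out. The R58Q call held in all 15 alternatives. The antisense-strand gene ACTA2, which overlaps FAS, had 1 to 10 counts. The ligand gene FASLG had 0 counts in every library.

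TNFRSF1B (ENSG00000028137.19, chr1:12166991-12209228) encodes a TNF receptor without a death domain. It had 61, 53 and 51 counts in vector, 103, 62 and 111 in S136X and 103, 51 and 101 in R58Q, in the order of replicates 1 to 3. Replicate 2 lay near the vector libraries in both mutants, and the R58Q libraries overlapped vector. S136X differed from vector by 0.92 on the log2 scale (95% interval 0.29 to 1.54, adjusted p = 0.0683) and R58Q by 0.74 (0.12 to 1.36, adjusted p = 0.0858), so neither was called. With the replicate block both were, at adjusted p = 0.0203 and 0.0324. Without replicate 2 of the mutant group they were also called (adjusted p = 0.0138 and 0.0166).

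TNFRSF8 (ENSG00000120949.15, chr1:12063303-12144207), the gene of CD30, an activation marker of lymphocytes, ends 22.8 kb before TNFRSF1B. Its counts were few, at 16, 12 and 15 in vector, 36, 14 and 30 in S136X and 31, 16 and 37 in R58Q. Replicate 2 was again the lowest in each mutant, with 0.434 CPM in S136X and 0.534 CPM in R58Q against 0.367 to 0.475 CPM in vector. The estimates were 1.06 in S136X (95% interval 0.15 to 1.98, adjusted p = 0.133) and 1.07 in R58Q (0.29 to 1.85, adjusted p = 0.0566). With the replicate block the adjusted p was 0.0438 and 0.0207, and without replicate 2 of the mutant group it was 0.0333 and 0.0231.

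The upstream sequences of this neighbouring pair are shown because the 2 genes had the same outlying replicate in both mutants. RefSeq windows were found for 6 of the 10 members (8 windows, GRCh38.p14), and none for CD40, TNFRSF4, TNFRSF13C or TNFRSF17. The 250 bases before each start were searched on both strands for the kB consensus, bound by NF-kB, and for TGAGTCA, the AP-1 element. Capitals, where there are any, mark matches to the kB consensus.
TNFRSF8 (chr1:12063053-12063302, + strand): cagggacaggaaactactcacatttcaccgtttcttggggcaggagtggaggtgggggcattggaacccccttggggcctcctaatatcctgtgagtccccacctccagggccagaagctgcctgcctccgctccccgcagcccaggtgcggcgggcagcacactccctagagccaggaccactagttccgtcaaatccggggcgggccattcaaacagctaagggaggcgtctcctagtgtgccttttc
TNFRSF1B (chr1:12166741-12166990, + strand): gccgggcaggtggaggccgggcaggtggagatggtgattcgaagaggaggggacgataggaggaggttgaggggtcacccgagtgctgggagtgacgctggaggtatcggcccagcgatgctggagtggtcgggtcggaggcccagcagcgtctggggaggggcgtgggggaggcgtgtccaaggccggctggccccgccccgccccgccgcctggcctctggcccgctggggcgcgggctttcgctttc
Neither stretch held either motif. The kB consensus was found for 2 of the 6 members, and 30 bases around each match are shown.
FAS (chr10:88991264-88991293, + strand): ggtcgctggaGGGGGACCCCggttggagag
TNFRSF9 (chr1:7940894-7940923, - strand): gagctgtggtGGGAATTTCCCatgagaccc
The FAS match began 157 bases before the start in 1 of its 3 windows. That start (88991431) lies inside the gene, and all 250 bases of the window are in annotated FAS exons. TNFRSF9 had 2 overlapping matches, from 74 bases before the start, and TGAGTCA 44 bases before it. The TNFRSF9 start (7940839) also lies inside the gene, and 94 bases of its window are in annotated exons. Counted by window, 2 of the 8 member windows held the kB consensus and 1 the AP-1 element. Among all 35116 RefSeq windows, 5.21% held the kB consensus and 4.20% the AP-1 element. These matches describe the sequence and no binding was measured.

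TNFRSF4 (ENSG00000186827.11, chr1:1211340-1214153), the gene of the costimulatory receptor OX40, had 68, 43 and 51 counts in vector, 142, 79 and 82 in S136X and 143, 104 and 91 in R58Q. All 6 mutant libraries were above all 3 vector libraries in CPM, and replicate 1 was the highest of each group. The rise was called in R58Q (2.28-fold, log2 fold change 1.19, standard error 0.256, adjusted p = 0.0150). In S136X the estimate was 1.07 (standard error 0.295, adjusted p = 0.0535) and became a call with the replicate block (adjusted p = 0.00272). The R58Q call was lost without vector replicate 2 (adjusted p = 0.0669) or vector replicate 3 (adjusted p = 0.0561). TNFRSF9 (ENSG00000049249.9, chr1:7915871-7943165), a costimulatory receptor of activated lymphocytes, had 4, 0 and 1 counts in vector, 2, 2 and 4 in S136X and 4, 7 and 4 in R58Q. With 0 to 7 counts in a library, no difference in TNFRSF9 was detectable at this depth.

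CD27 (ENSG00000139193.3, chr12:6444867-6451718), a costimulatory receptor and memory B-cell marker, fell in both mutants. CD27 counts were 3077, 2332 and 2469 in vector, 1031, 1559 and 1097 with S136X and 1327, 1585 and 1560 with R58Q. Every mutant library was below every vector library. Within vector, replicate 1 was the highest, whereas in both mutants it was the lowest. Mean CD27 was 78.4 ± 11.2 CPM in vector cells, 40.7 ± 6.82 with S136X and 48.5 ± 4.16 with R58Q (SD, n = 3). The decrease was 1.93-fold in S136X (log2 fold change -0.95, standard error 0.134, adjusted p = 0.00441) and 1.62-fold in R58Q (-0.70, standard error 0.108, adjusted p = 0.00408, edgeR). Same-numbered libraries gave log2 ratios to vector of -1.37, -0.56 and -0.92 in S136X and -1.03, -0.43 and -0.61 in R58Q. Without vector replicate 1, the R58Q change was -0.56, below 1.5-fold, and the call was lost although the adjusted p was 0.00649. Genes on both strands overlap CD27. The antisense CD27-AS1 had 76 to 112 counts and TAPBPL on the same strand 241 to 388, and the strand setting of the counting is not given in the sources used here.

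CD27 was called in both mutants, and the bases before its RefSeq start (6443892) are therefore shown. That start lies before the counted gene, which begins at 6444867, so the bases directly before the counted gene were not searched. The bases shown held neither motif, so nothing is in capitals.
CD27 (chr12:6443642-6443891, + strand): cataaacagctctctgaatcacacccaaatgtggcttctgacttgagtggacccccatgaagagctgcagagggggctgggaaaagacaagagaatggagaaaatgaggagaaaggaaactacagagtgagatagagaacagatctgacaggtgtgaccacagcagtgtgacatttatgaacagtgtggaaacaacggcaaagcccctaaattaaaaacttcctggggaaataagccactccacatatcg

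The ligand of CD27 moved in the opposite direction. CD70, which encodes it, had 524, 574 and 869 counts in vector, 877, 1138 and 1101 in S136X and 1450, 1365 and 1902 in R58Q. The groups did not overlap. CD70 rose 1.77-fold in S136X (log2 fold change 0.82, standard error 0.178, adjusted p = 0.0229) and 2.60-fold in R58Q (1.38, standard error 0.178, adjusted p = 0.00196).

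The 3 receptors for BAFF and APRIL all had estimates below 0. TNFRSF17 (ENSG00000048462.11, chr16:11965210-11968068), the gene of BCMA, the receptor of plasmablasts and plasma cells, had 663, 510 and 622 counts in vector, 269, 372 and 251 in S136X and 380, 385 and 366 in R58Q. All mutant libraries lay below vector, and the mutants overlapped each other. TNFRSF17 fell 1.81-fold in S136X (log2 fold change -0.86, standard error 0.137, adjusted p = 0.00712). In R58Q the difference was 1.46-fold (-0.54, standard error 0.114, adjusted p = 0.0138), just under the 1.5-fold limit. It passed as a call with upper-quartile scaling (-0.61), with total counts (-0.60) and without vector replicate 2 (-0.63). The antisense-strand gene NPIPB2 overlaps it, with 40 to 103 counts.

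TNFRSF13B (ENSG00000240505.9, chr17:16929816-16972118), the gene of TACI, which binds both ligands, had nearly constant vector counts of 1902, 1844 and 1886. The counts were 1423, 1329 and 1166 in S136X and 1431, 1071 and 1271 in R58Q. All mutant libraries were below vector in CPM, and replicate 1 was the highest of each mutant group. The change was 1.29-fold in S136X (log2 fold change -0.36, standard error 0.0796, adjusted p = 0.0238) and 1.37-fold in R58Q (-0.46, standard error 0.104, adjusted p = 0.0182), below 1.5-fold in both. The pseudogene TBC1D27P overlaps it on the same strand and had 614 to 1683 counts, so reads could be shared and these values are uncertain. TNFRSF13C (ENSG00000159958.7, chr22:41922032-41926806), the gene of the BAFF receptor of mature B cells, had 4791, 5755 and 6096 counts in vector, 3186, 4954 and 4153 in S136X and 2944, 4055 and 4010 in R58Q. Replicate 1 was the lowest of each group, and in CPM the S136X libraries overlapped vector while those of R58Q did not. S136X differed from vector by -0.29 on the log2 scale (95% interval -0.59 to 0.02, adjusted p = 0.215) and R58Q by -0.48 (-0.77 to -0.19, adjusted p = 0.0312), again under 1.5-fold. The same-numbered pairs gave -0.39, -0.20 and -0.30 for TNFRSF13C in S136X, and with the replicate block its adjusted p there was 0.00294.

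Markers of B-cell and plasma-cell identity are given beside these decreases. Of the 8 B-cell markers, 7 had estimates below 0 in each mutant against vector and 0 were called by edgeR, DESeq2 or limma-voom. Some fell by less than 1.5-fold at an edgeR adjusted p under 0.05. These were CD79B in S136X (log2 fold change -0.39, adjusted p = 0.0361) and, in R58Q, CD79A (-0.35, adjusted p = 0.0466) and CD37 (-0.24, adjusted p = 0.0446). At an unadjusted p under 0.05, edgeR gave 3 in S136X and 4 in R58Q, DESeq2 3 and 5, and limma-voom 3 and 4. The median of the 8 log2 fold changes was -0.18 with S136X and -0.33 with R58Q, and their CPM summed to 3813 to 4333 (vector), 3588 to 4146 (S136X) and 3358 to 3825 (R58Q). Of the 7 plasma-cell markers, IRF4 alone was called, higher in both mutants (1.59-fold in S136X, adjusted p = 0.00153, and 1.69-fold in R58Q, adjusted p = 0.00157). The plasma-cell medians were -0.22 and -0.28, with 5 estimates below 0 and 2 above in each mutant. Their summed CPM was 1140 to 1259 (vector), 1523 to 1563 (S136X) and 1585 to 1750 (R58Q). IRF4 made up most of this sum, its group means being 737, 1171 and 1247 in the same order. MZB1 fell in S136X (adjusted p = 0.0294 by edgeR) and R58Q (0.0360), and CD38 in S136X (0.0487). These decreases were under 1.5-fold. The part of these markers in the lower levels of CD27, TNFRSF17, TNFRSF13B and TNFRSF13C was not tested.

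**Figure D3:**
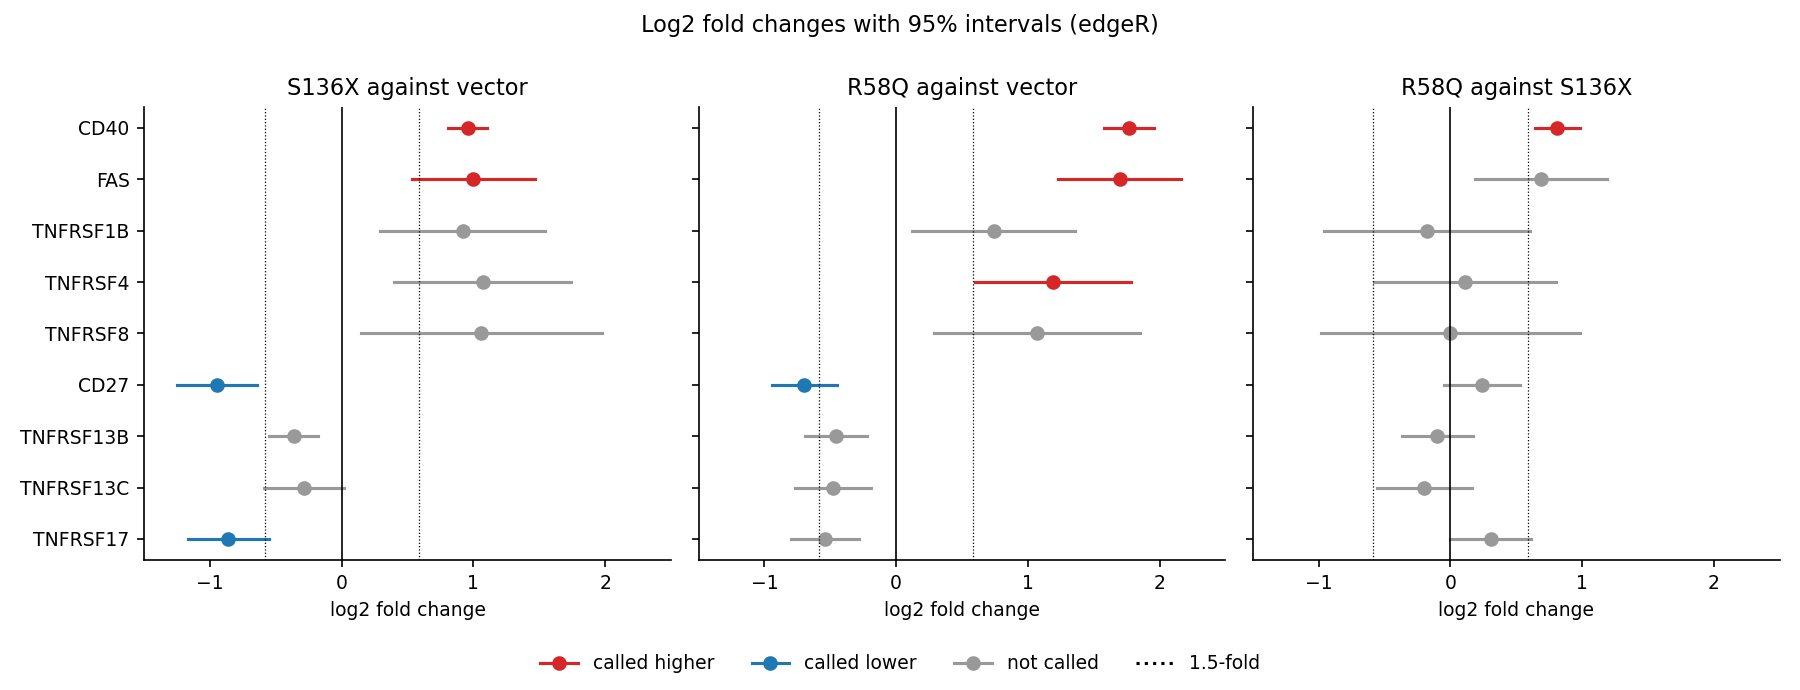
Log2 fold change (point) with its 95% interval (line) for the 9 tested receptors in the 3 comparisons by edgeR, with called genes in colour and dotted lines at 1.5-fold. CD40, FAS, TNFRSF1B, TNFRSF4 and TNFRSF8 lie to the right of 0 in both mutants against vector, and only CD40 is called between the mutants.

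The mutants were then compared with each other, to ask whether the truncation and the missense mutant gave different receptor levels. CD40 was the 1 member called, 1.75-fold higher in R58Q than in S136X (log2 fold change 0.81, 95% interval 0.64 to 0.98, adjusted p = 0.00634 by edgeR). Among all 15195 genes tested, 0.434% were called, 0.270% higher and 0.165% lower in R58Q. The 3 same-numbered pairs gave 0.90, 0.72 and 0.82 for CD40. The call was lost without S136X replicate 3, with the estimate at 0.82 and the adjusted p at 0.0819. FAS was 1.61-fold higher in R58Q (log2 fold change 0.69, 95% interval 0.19 to 1.19, adjusted p = 0.264) and was not called. Its 3 same-numbered pairs gave 0.70, 0.75 and 0.64, and with the replicate block FAS was called (adjusted p = 0.000748), which raised the count of members to 2, beside 2.94% of all genes in that fit.

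The other members were not called between the mutants. The interval was -0.05 to 0.53 for CD27 (estimate 0.24) and 0.00 to 0.61 for TNFRSF17 (estimate 0.31), both with all 3 same-numbered pairs higher in R58Q. It was -0.37 to 0.17 for TNFRSF13B and -0.56 to 0.16 for TNFRSF13C. With the replicate block the adjusted p was 0.00387 for CD27, 0.0176 for TNFRSF17 and 0.00360 for TNFRSF13C, whose 3 pairs were all lower in R58Q, with each change still under 1.5-fold. The intervals were wide for the genes with few counts, from -0.58 to 0.80 for TNFRSF4, from -0.98 to 0.98 for TNFRSF8 and from -0.96 to 0.60 for TNFRSF1B. Differences of 1.5-fold in either direction were thus within the interval for TNFRSF8 and TNFRSF1B. BCL10 itself was not called between the mutants (log2 fold change -0.31, adjusted p = 0.363).

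Across the 9 libraries, the members formed patterns that partly crossed the groups. The Pearson correlations of log2 CPM given here describe 9 libraries that share group, replicate number and column date. CD40 and FAS had r = 0.934, and CD27 and TNFRSF17 had r = 0.962. TNFRSF4 and TNFRSF13C were opposed (r = -0.923), as were FAS and TNFRSF13B (r = -0.911), and replicate 1 was highest for TNFRSF4 and lowest for TNFRSF13C in every group. Among 12836 genes with a mean of at least 1 CPM, those most like CD40 were NETO2 (r = 0.995), LTA (r = 0.994) and ARHGAP31 (r = 0.992). ARID5A (r = 0.984) and SRPRB (r = 0.976) were most like FAS, and those most like CD27 were SUSD3 (r = 0.979), OR13A1 (r = 0.975) and RHBDD1 (r = 0.975).

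Ligand genes of the 10 receptors were read in the same fits. Beside this and the following lists, 3.87% of all tested genes were called in S136X, 7.63% in R58Q and 0.434% between the mutants. The all-gene medians against vector were -0.020 in S136X and -0.028 in R58Q. Of 10 ligand genes, 7 were tested in S136X against vector and CD70, TNF and LTA were called, all higher. Of the same 7 genes, 4 were called in R58Q, all higher, namely these 3 and TNFSF9. Their medians were 0.56 with S136X and 1.13 with R58Q on the log2 scale. TNF and LTA encode the ligands of TNFRSF1B. TNF had 2387, 2505 and 2787 counts in vector, 9666, 10473 and 8755 in S136X and 23317, 16756 and 21504 in R58Q, and rose 4.19-fold and 8.72-fold (adjusted p = 2.64e-06 and 1.76e-05). LTA, the gene of lymphotoxin alpha, had 855, 927 and 1006, then 4771, 5738 and 4747, then 17311, 12762 and 20599 counts. Its rise was 6.09-fold in S136X and 19.7-fold in R58Q (adjusted p = 1.75e-06 and 1.22e-05). Between the mutants, TNF and LTA were the 2 ligands called, 2.07-fold and 3.21-fold higher in R58Q (adjusted p = 0.0138 and 0.00419).

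The other ligands were lower in level. TNFSF9, the ligand of TNFRSF9, rose 2.19-fold in R58Q (log2 fold change 1.13, adjusted p = 0.000252) and was 1.48-fold higher in S136X (adjusted p = 0.00640), just under the limit. TNFSF13B, which encodes BAFF, had 4, 8 and 3 counts in vector, 8, 8 and 14 in S136X and 12, 12 and 15 in R58Q. In R58Q against vector, only the R58Q libraries reached 10 counts, so the gene entered that test through the group where it is high and is left out of the count of called ligands, which would be 5 with it. TNFSF4, TNFSF8 and TNFSF13, the ligands of OX40 and CD30 and APRIL, were not called in any comparison. Summed over all 10 ligand genes, the level in CPM was 148 to 180 (vector), 560 to 578 (S136X) and 1080 to 1477 (R58Q), against 456 to 480, 503 to 538 and 702 to 759 for the 10 receptors.

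**Figure D4:**
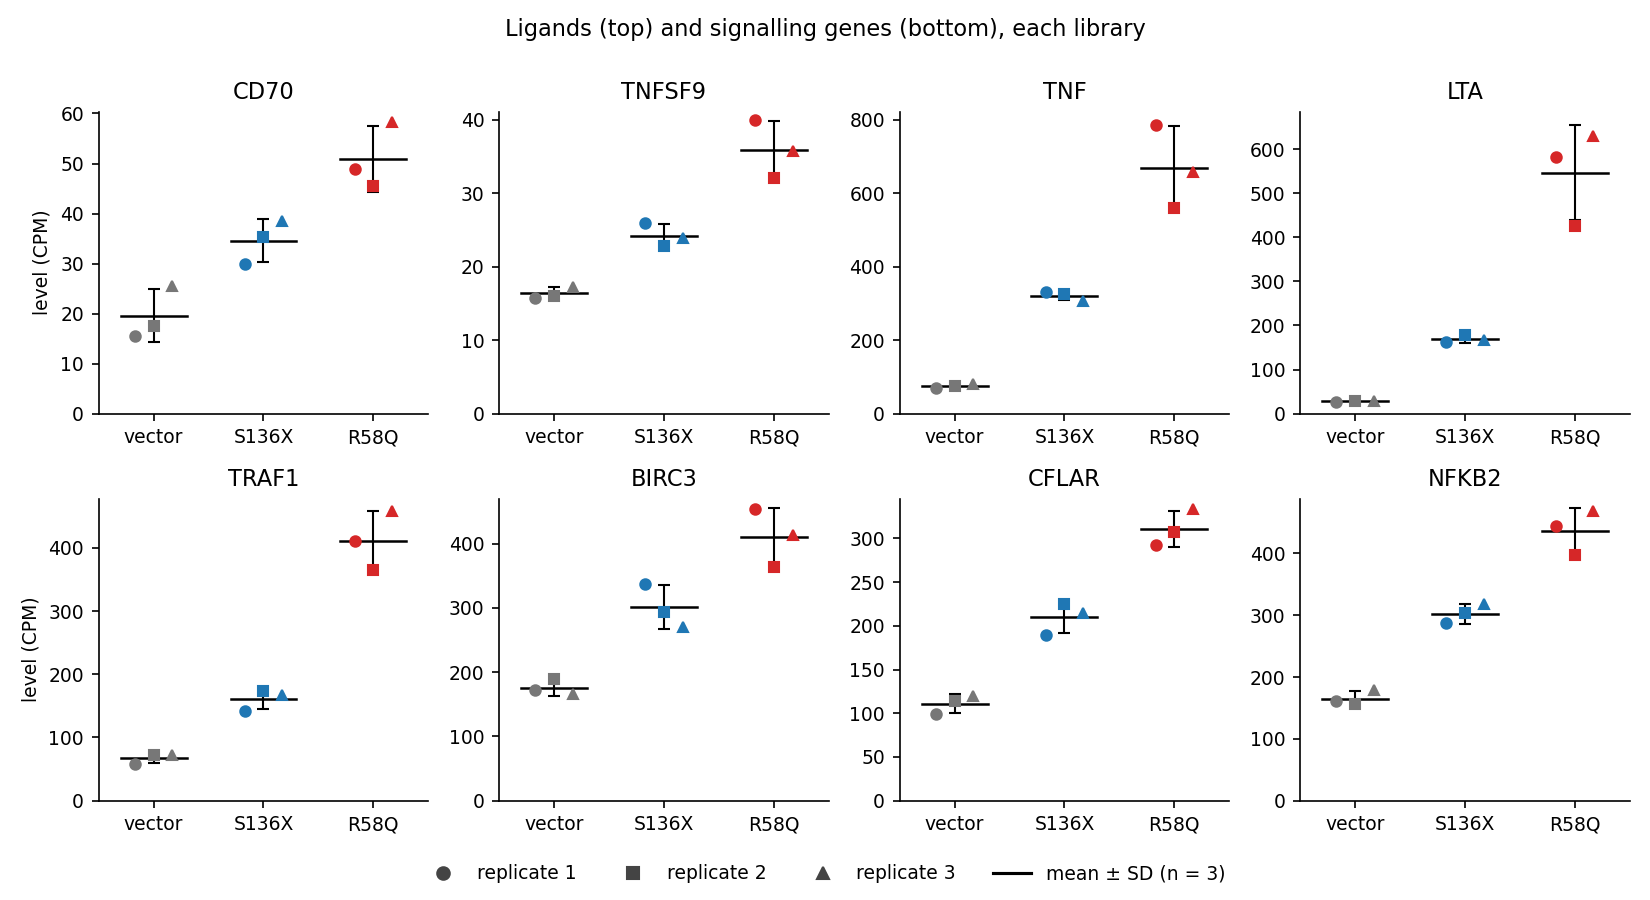
Level in CPM of 4 ligand genes (top) and 4 signalling genes (bottom) in every library, with replicate symbols and the mean ± SD (n = 3); each panel has its own axis starting at 0. All 8 genes are ordered vector, S136X, R58Q, and no group overlaps another.

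TRAF adaptors and their signalling partners, below called the adaptors, were read next. All 10 TRAF, cIAP, NIK, TRADD and RIPK1 genes were tested. Of these, 2 were called in S136X (TRAF1 and BIRC3) and 3 in R58Q (these and BIRC2), all higher. TRAF1, an adaptor recruited by CD40 and TNFRSF1B, had 1942, 2368 and 2460 counts in vector, 4158, 5575 and 4769 in S136X and 12199, 10912 and 14973 in R58Q. TRAF1 rose 2.38-fold and 6.09-fold (adjusted p = 0.000414 and 1.87e-05) and was 2.54-fold higher in R58Q than in S136X (adjusted p = 0.00419). BIRC3, a cIAP ubiquitin ligase bound through TRAF2, rose 1.71-fold and 2.33-fold (adjusted p = 0.00184 and 0.000139). BIRC2, the other cIAP, rose 1.63-fold in R58Q (adjusted p = 0.000362) and was 1.51-fold higher there than in S136X (adjusted p = 0.0242). The median of the list was 0.09 in S136X and 0.32 in R58Q.

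In the arm that carries the FAS signal, 2 of 7 genes were called in S136X, CFLAR and BID, and both were also called in R58Q, all higher. CFLAR, the inhibitor of caspase-8 activation at the receptor, had 3346, 3722 and 4067 counts in vector, 5532, 7245 and 6131 in S136X and 8702, 9179 and 10925 in R58Q. The increase was 1.89-fold and 2.80-fold (adjusted p = 0.000830 and 4.56e-05). BID, the BH3-only protein cleaved by caspase-8, rose 1.70-fold and 1.71-fold (adjusted p = 0.000340 and 0.000338). The list medians were 0.30 and 0.18.

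Of the 5 NF-kB subunit genes, NFKB1 and NFKB2 were called in S136X and NFKB1, NFKB2 and RELB in R58Q, all higher. NFKB2, whose product is processed to p52 downstream of CD40 and the BAFF receptor, rose 1.83-fold and 2.64-fold (adjusted p = 0.000346 and 4.75e-05). NFKB1 rose 1.76-fold and 2.25-fold (adjusted p = 0.000265 and 4.56e-05), and RELB, the partner of p52, rose 1.60-fold in R58Q (adjusted p = 0.000598). The list medians were 0.51 and 0.68.

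Of the 19 other genes of the superfamily, 11 were tested, and 8 had too few counts. TNFRSF18, which encodes GITR and lies 4.7 kb from TNFRSF4, was called higher in S136X (1.75-fold, adjusted p = 0.0473) and in R58Q (2.21-fold, adjusted p = 0.00308). It had 177, 256 and 263 counts in vector, 274, 374 and 440 in S136X and 401, 492 and 528 in R58Q. Unlike TNFRSF4, it was lowest in replicate 1 of each group. Its S136X call was lost with limma-voom, upper-quartile scaling, total counts, protein-coding genes only and 5 of the 6 replicates left out. TNFRSF14, the receptor HVEM, was called in R58Q only (1.69-fold, adjusted p = 0.0278, against 1.19-fold in S136X, adjusted p = 0.507), and its difference between the mutants was not called (log2 fold change 0.49, adjusted p = 0.475). The family members nearest to the other receptors gave no call. LTBR, 53.3 kb from CD27, had at most 1 count in any library. TNFRSF25, 1449.7 kb from TNFRSF9, had log2 fold changes of -0.20 and -0.14, and TNFRSF12A, on the chromosome of TNFRSF17, had -0.44 and -0.39. TNFRSF6B, on the chromosome of CD40, had 0 counts and NGFR, on that of TNFRSF13B, had 1 to 5.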

How the data were processed

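RNA from 9 RIVA samples (3 replicates each of vector, S136X and R58Q) was polyA-selected and sequenced as single 100-base reads in 2 runs that the authors combined. The submitters' processing notes name cutadapt, STAR, Picard and hg38, while versions, the counting program, its annotation and its strand setting are not given in the sources used here. The authors deposited raw read counts per gene for 60656 genes. The 9 columns of normalized counts beside them were not used. Of the gene identifiers, 96.3% were in GENCODE release 29, with overlapping positions for 99.9% of these.

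Differences were tested with edgeR 4.0.16 (R 4.3.3) on the 6 libraries of each comparison, after filterByExpr (at least 10 counts, 15 in total) and TMM scaling, by quasi-likelihood F tests whose p-values were adjusted over all genes by the Benjamini-Hochberg method. Calls needed an adjusted p below 0.05 and a 1.5-fold change. Standard errors are the log2 fold change over the root of F, and CPM uses TMM factors of all 9 libraries. DESeq2 1.42.0, limma-voom (limma 3.58.1), other scalings, filters and thresholds, all 9 libraries in one fit, the replicate block and leaving out each replicate were tried as alternatives. The procedure was tested on simulated data. A count of 0 allows up to 3 counts, for counting error only.

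Libraries of one group differed beyond sampling noise (chi-square divided by its degrees of freedom was 7.91 to 25.6), and each counted as 1 sample. The study calls them biologic replicates, but the labels name no separate cultures, so p-values measure the spread between these libraries. Same-numbered libraries deviated together from their group means (9 correlations of 0.143 to 0.626, median 0.425, against a median of -0.251 for 18 others). Deviations within a group sum to 0, so positive values for the 9 push the 18 down, and these are no independent baseline. The main tests were unpaired and did not use this pairing. Only the replicate block and the log2 ratios of same-numbered libraries used it.

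The members and gene lists were chosen with earlier results of these data known. Named genes are BCL10, the 10 members, up to 6 called genes of each list, the nearest superfamily genes on the chromosomes of the members, and for CD40, FAS and CD27 the 3 genes with the highest correlation. Some genes that these rules select are not reported here. Overlapping genes were named after their values were seen. Upstream sequences are from RefSeq.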

Additional observations from a re-analysis of the deposited data

Results flagged for a closer look

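The log2 fold change of CD40 between the mutants, 0.81 in R58Q against S136X, was taken up because the effects of the mutants on 1 gene differed by a direct test. CD40 was higher in R58Q in 3 of 3 same-numbered pairs (0.90, 0.72 and 0.82), and its adjusted p by edgeR was 0.00634, with 1.78e-17 to 0.0819 over the 15 alternative fits. All R58Q libraries carry a later column date than the S136X libraries, so date and construct cannot be told apart.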

How the results depend on the processing

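Among the members, every call in S136X or R58Q against vector kept its direction in all 15 alternative fits. With the replicate block, 7 members were called in S136X against vector (4 without it), beside 6.53% of all genes (3.87% without it). In R58Q against S136X, 2 were called (1 without it), beside 2.94% of all genes (0.434% without it). Beyond the calls of TNFRSF4, TNFRSF8, TNFRSF1B and FAS given with the results, the block changed no call of a member. At a 2-fold minimum, 0 members were called in S136X against vector, beside 1.56% of all genes, and 3 in R58Q against vector, beside 3.41%. Between the mutants 0 were called at 2-fold, beside 0.257%. With no minimum fold 5 were called in S136X against vector, beside 10.1% of all genes, and 7 in R58Q against vector, beside 21.0%. Leaving out each replicate in turn gave 0 to 1 called members between the mutants, beside 0.0321% to 0.404% of all genes. The sign of estimates near 0 between the mutants turned. TNFRSF8 (0.00) was -0.01 with DESeq2, -0.02 with upper-quartile scaling, -0.01 with protein-coding genes only and -0.34 to 0.29 with replicates left out. TNFRSF4 (0.11) ranged from -0.12 to 0.46 and TNFRSF1B (-0.18) from -0.43 to 0.07 with replicates left out. Of the other superfamily genes, S136X against vector gave 0 with limma-voom, upper-quartile scaling, total counts, protein-coding genes only, the 2-fold minimum or an adjusted p under 0.01, and 0 to 1 with replicates left out, while R58Q against vector gave 4 with no minimum fold, 1 at either stricter threshold and 1 to 2 with replicates left out. The adaptors gave 4 in S136X and 5 in R58Q with no minimum fold and 1 in S136X at 2-fold. Between the mutants the adaptors gave 1 with upper-quartile scaling or at either stricter threshold and 0 to 2 with replicates left out, and the ligands 1 at an adjusted p under 0.01 and 0 to 3 with replicates left out. The death receptor arm and the NF-kB subunits each gave 0 in S136X at 2-fold and 1 between the mutants with no minimum fold. The causes were not tested. Low counts limit TNFRSF9, TNFRSF8, TNFRSF1B, TNFRSF4 and FAS, whose counts stay under 200 in every library.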
